A study of Mus musculus with 3 samples.

Results

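A set of 9 genes of proteins that yolk sac and liver release into the blood plasma were followed in mouse embryos, in a comparison of 11.5 days post coitum (dpc) metanephroi with 10.5 dpc metanephric mesenchyme. The genes were taken by name, with earlier results of these data known. They are the carriers Afp, Alb, Ttr, Rbp4 and Trf, the apolipoprotein genes Apoa1, Apoa2 and Apob, and the fibrinogen gene Fgb. All of them had probes, 12 in all, and 8 of them had values on all 3 arrays, as 9 probes among 19660, or 8 genes among 14047. Apob and 2 of the 4 Trf probes had values on 2 arrays only. Both tissues were microdissected from normal CD1 embryos of both sexes, pooled, and amplified RNA of both was hybridised together on each two-colour Compugen oligonucleotide array. Arrays 1 and 2 had the dye order red/green and array 3 had green/red, and no common reference was used. Nothing in the labels says whether the arrays came from separate dissections, so a p-value covers the variation among these 3 hybridisations and may reflect technical error alone.

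Each value is a log2 ratio of both channels, as the authors normalized it. The labels do not state whose RNA is on top of the ratio. Nor do they state whether the ratios of array 3, of the other dye order, had been turned to match the others. Array 3 was used as deposited. If it had not been turned, an equal sign on array 3 and on the others would mean opposite tissues. Signs are given below as they stand in the values, without saying which tissue had more. In such tissue, fewer cells of a type and less RNA per cell cannot be told apart. Ratios hold no level, so the labelled tissue could not be checked by the level of its markers. All 13 kidney development genes looked up had values on all arrays, from Wt1, a transcription factor of the mesenchyme, at 1.75 ± 0.04 (mean ± SD, n = 3 arrays here and below) to Ret, a receptor of the ureteric bud, at -0.43 ± 0.11. Array 3 stood apart from the others. Across probes, which are not independent replicates, its Spearman correlation was 0.211 with array 1 and 0.171 with array 2, while arrays 1 and 2 had 0.466. Intensities were not analysed here, and precision is limited by having 3 arrays.

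In the mouse embryo the visceral endoderm of the yolk sac makes alpha-fetoprotein, transferrin, transthyretin and apolipoproteins before the liver takes over much of this secretion. The fetal liver then adds albumin and the clotting proteins, and all of them circulate with the blood. Kidney rudiments are not known as a main source of these proteins.

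Afp, Apoa1, Ttr, Trf and Rbp4 had negative ratios on all 3 arrays, with means between -1.68 and -0.99. Alb and Fgb were positive on all arrays and Apoa2 had both signs. None of the 8 genes passed an adjusted p of 0.05 by limma (Benjamini-Hochberg over all genes). Of 14047 genes 0 passed, which is 0% of those tested, with a smallest adjusted p of 0.149, while 2750 had an unadjusted p under 0.05. The 8 genes were chosen with earlier results of these data known, so the counts and medians that follow describe them and test nothing. At that unadjusted p, 5 of the 8 genes were negative, where 9.69% of all genes were, and 0 of 8 were positive, where 9.89% of all genes were. A negative ratio on every array was found for 5 of 8 genes and for 22.5% of all genes, and a positive one for 2 of 8 and for 22.9%. The median of the 8 means was -1.06, against a median over all genes of -0.00195. With array 3 turned the other way, 0 of 8 had an unadjusted p under 0.05 and the median was -0.38.

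**Figure D1:**
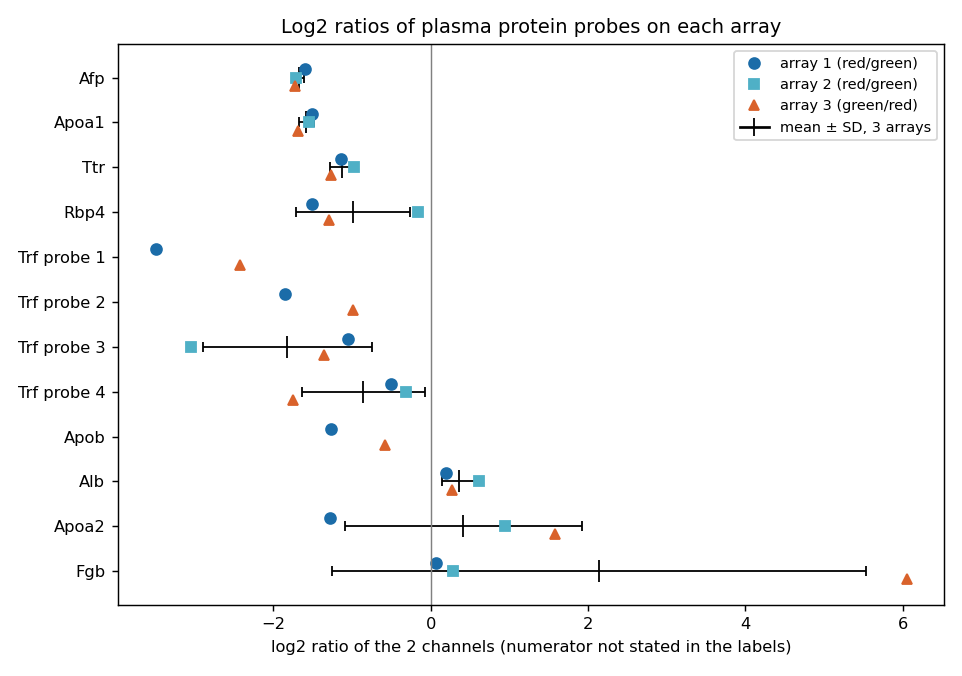
Log2 ratio of every probe of the 9 genes on each array (points; colour and shape give the array and its dye order), with the mean and SD as bars where all 3 arrays had a value. Afp, Apoa1 and Ttr have their arrays close together on the negative side, Rbp4 and Trf lie on the same side with wider spread, and Fgb has 1 array at 6.05.

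Afp encodes alpha-fetoprotein, the main carrier protein of fetal plasma, and Alb encodes albumin, its relative that replaces it after birth. Afp had log2 ratios of -1.60, -1.72 and -1.72 on arrays 1, 2 and 3. The arrays lay close together, and array 3, of the other dye order, had the same value as array 2 to 2 decimals. The mean was -1.68 ± 0.07, a 3.20-fold difference in size, with a 95% interval from -2.06 to -1.30 and an adjusted p of 0.149 by limma. Alb had 0.20, 0.62 and 0.28, and all arrays were on the positive side. Its mean was 0.36 ± 0.23, with an interval from -0.10 to 0.82 and an unadjusted p of 0.0915 by limma.

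Both genes lie side by side on chromosome 5, in the RefSeq order of GRCm38.p6. Afp minus Alb was -1.80, -2.34 and -1.998 on arrays 1, 2 and 3, so the genes differed in the same direction on each. The mean difference was -2.04 ± 0.27, and an exact two-sided sign-flip test gave p = 0.25, the smallest that 3 arrays allow. The next gene along, Afm, which encodes afamin of the same family, had 1.73, -1.21 and -1.27 and a mean of -0.25 ± 1.72, with array 1 opposite to the others.

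The promoters of Afp and Alb are shown because these neighbours had ratios of opposite sign, and that of Apoa1 because its ratios were the nearest to those of Afp. Each is 300 bases of GRCm38.p6 from RefSeq, 5′ to 3′, with 250 bases before the start of the gene and 50 after it, all on the plus strand. The windows are chr5:90490464-90490763 for Afp, chr5:90460620-90460919 for Alb and chr9:46228380-46228679 for Apoa1. Capitals mark GTTAAT, a half-site of the HNF1 factors that bind both the albumin and alpha-fetoprotein promoters, and TATAAA, known as the TATA box, each searched on both strands.
Afp: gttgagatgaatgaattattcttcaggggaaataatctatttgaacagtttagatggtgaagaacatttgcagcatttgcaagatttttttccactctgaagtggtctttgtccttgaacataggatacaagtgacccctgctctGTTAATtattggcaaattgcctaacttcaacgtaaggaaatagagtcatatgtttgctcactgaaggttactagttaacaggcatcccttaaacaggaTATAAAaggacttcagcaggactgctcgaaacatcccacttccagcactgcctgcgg
Alb: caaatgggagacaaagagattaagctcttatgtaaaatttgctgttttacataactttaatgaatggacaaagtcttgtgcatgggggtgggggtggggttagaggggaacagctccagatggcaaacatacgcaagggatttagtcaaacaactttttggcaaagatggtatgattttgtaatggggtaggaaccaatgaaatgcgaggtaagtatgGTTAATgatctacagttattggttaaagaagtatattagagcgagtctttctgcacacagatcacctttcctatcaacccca
Apoa1: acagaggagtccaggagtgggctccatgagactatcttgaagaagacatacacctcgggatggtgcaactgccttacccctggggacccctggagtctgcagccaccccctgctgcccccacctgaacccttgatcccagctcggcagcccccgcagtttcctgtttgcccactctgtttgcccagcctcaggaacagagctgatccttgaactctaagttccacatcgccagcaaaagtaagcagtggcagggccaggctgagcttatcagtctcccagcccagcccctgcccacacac

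GTTAAT was found once in the Afp window, 105 bases before the start, and once in the Alb window, 32 bases before it. The Apoa1 window had neither motif. TATAAA was found in the Afp window and not in that of Alb, and the motifs did not overlap. Promoter windows were matched for 7 of the 9 genes, and besides Afp and Alb only Fgb among these 7 had GTTAAT. Of 32851 windows of this length, 7.10% held GTTAAT and 13.6% held TATAAA. The half-site was present in Afp, with negative ratios, and in Alb and Fgb, with positive ratios whose intervals included 0. A match of letters says nothing of binding.

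Ttr encodes transthyretin, which carries thyroxine and holds the retinol-binding protein encoded by Rbp4 in the plasma. Ttr had -1.15, -0.97 and -1.27 on arrays 1, 2 and 3, all within 0.3 of each other. The mean was -1.13 ± 0.15, with an interval from -1.54 to -0.72 and an adjusted p of 0.149 by limma. Rbp4 had -1.50, -0.16 and -1.30, so that array 2 was near 0 and the others were not. Its mean was -0.99 ± 0.72, with an interval from -1.92 to -0.06 and an adjusted p of 0.240 by limma. Without array 1 its unadjusted p was 0.164 and without array 3 it was 0.165. Ttr minus Rbp4 was 0.36, -0.81 and 0.03, with no common direction (mean -0.14 ± 0.60, exact sign-flip p = 1).

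Trf encodes transferrin, the iron carrier of plasma. Its 4 probes gave 10 values, and all 10 were negative. Probe 1 had -3.50 on array 1 and -2.43 on array 3, and probe 2 had -1.85 and -0.99 on the same arrays. Probe 3 had -1.06, -3.05 and -1.36 on arrays 1, 2 and 3, and probe 4 had -0.50, -0.32 and -1.75. The probes differed in size, and the array farthest from 0 was array 2 for probe 3 and array 3 for probe 4. The 2 probes with all arrays gave a mean of -1.34 ± 0.49 for the gene and an adjusted p of 0.158 by limma. With all 4 probes entered the mean was -1.68. Taken singly in a fit over all probes, probe 3 had an unadjusted p of 0.021 and probe 4 of 0.079 by limma.

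Apolipoproteins coat the particles that carry lipids in plasma. Apoa1 encodes the main protein of high-density particles and had -1.50, -1.55 and -1.69 on arrays 1, 2 and 3. All arrays agreed within 0.2, and the mean was -1.58 ± 0.10, a 2.99-fold difference in size, with an interval from -1.97 to -1.19 and an adjusted p of 0.149 by limma. Apoa2, which encodes the other major protein of these particles, had -1.28, 0.95 and 1.58. Arrays 1 and 2 had opposite signs although their dye order was the same, and the mean was 0.42 ± 1.51. Its mean was 1.27 without array 1, with an unadjusted p of 0.0230 by limma, and -0.17 without array 3. Apoa1 minus Apoa2 was -0.22, -2.50 and -3.27, with a mean of -1.998 ± 1.59 and an exact sign-flip p of 0.25. Apob encodes the large protein of low-density particles, which the yolk sac also needs for lipid export. It had -1.27 on array 1 and -0.58 on array 3, both negative, and entered no main test.

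Fgb encodes the beta chain of fibrinogen, the clot-forming protein of plasma. It had 0.06, 0.29 and 6.05 on arrays 1, 2 and 3, so 2 arrays were near 0 and 1 was not. On array 3 it ranked as gene number 3 from the top of 14047. The mean of 2.14 ± 3.40 rests on array 3, and it was 0.18 without that array. Fgg, the gamma chain gene, had -0.30, -5.00 and 2.22, a mean of -1.03 ± 3.67, and Fga, the alpha chain gene, had 0.78 on array 1 and -1.19 on array 3. The 3 chain genes, which form one protein and lie together on a chromosome, thus had no common sign on array 3.

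**Figure D2:**
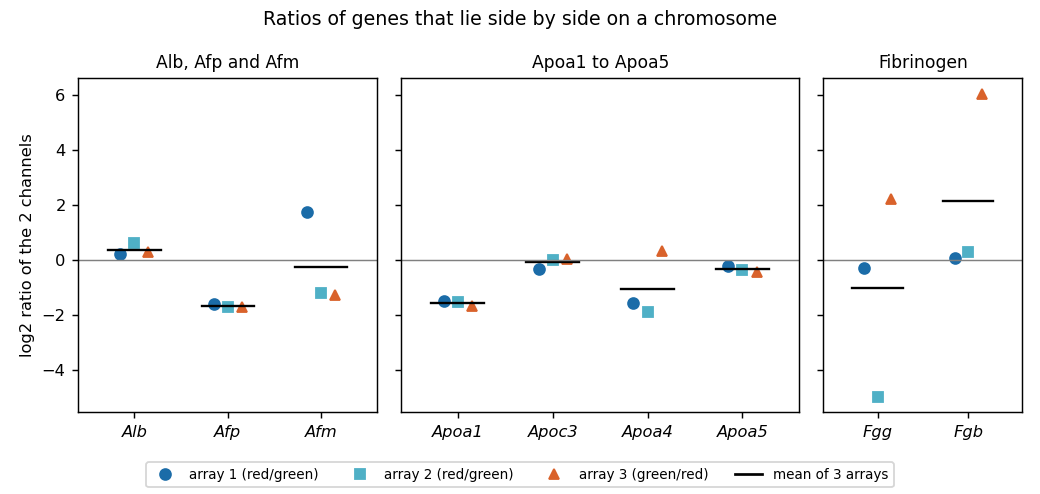
Log2 ratio on each array (points) and mean of 3 arrays (bars) for genes that lie beside each other in RefSeq order on chromosomes 5, 9 and 3; Fga, which had 2 arrays, is not drawn. Afp is negative beside a positive Alb, Apoa1 has its arrays near -1.58 beside Apoc3 near 0, and Fgg and Fgb spread most.

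Apoa1 lies in a cluster with Apoc3, Apoa4 and Apoa5, which encode apolipoproteins of triglyceride-rich particles. Apoc3 had -0.32, 0.01 and 0.03, near 0 on arrays 2 and 3, with a mean of -0.09 ± 0.20. Apoa4 had -1.59, -1.91 and 0.31, negative on the arrays of one dye order and positive on the other, with a mean of -1.06 ± 1.20. Apoa5 had -0.21, -0.37 and -0.44, with a mean of -0.34 ± 0.12. Unadjusted p by limma was 0.576 for Apoc3, 0.113 for Apoa4 and 0.0767 for Apoa5.

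The spread over arrays separated the genes as much as the means did. The SD of Afp was higher than that of 4.46% of all genes, that of Apoa1 than 8.26% and that of Ttr than 17.5%, while that of Apoa2 exceeded 93.7% and that of Fgb 99.3%. The median SD was 0.358 for the 8 genes and 0.337 for all genes. Only 150 genes had a lower mean than Afp, and 1.07%, 1.33%, 2.18%, 3.33% and 4.60% of all genes lay below Afp, Apoa1, Trf, Ttr and Rbp4 in their means. Array by array, 2.75%, 3.72% and 1.57% of genes had a lower ratio than Afp on arrays 1, 2 and 3. For Rbp4 these shares were 3.04%, 37.5% and 3.85%, so array 2 placed it among the middle of all genes.

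**Figure D3:**
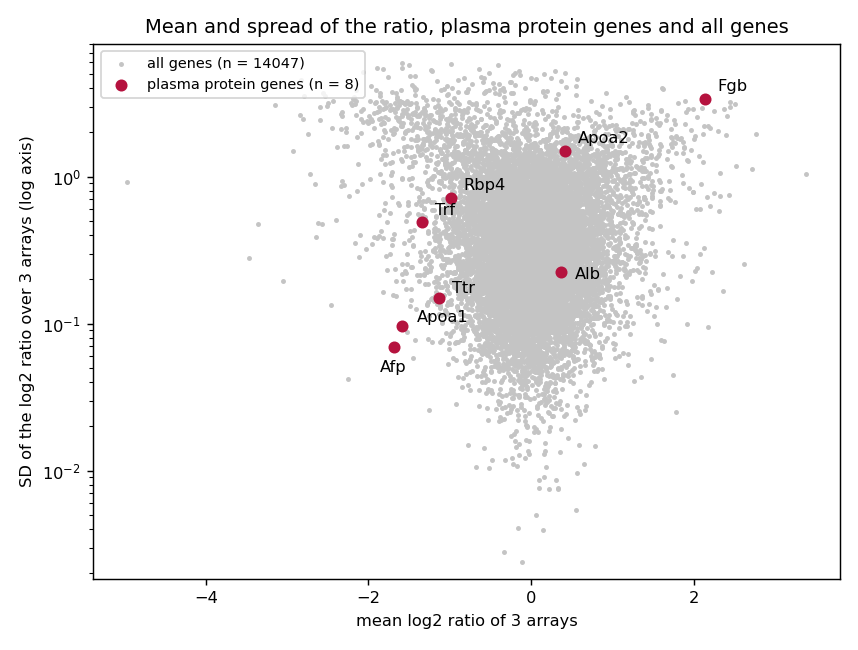
Mean log2 ratio of 3 arrays against its SD over the arrays (log axis) for all 14047 genes (grey) and the 8 plasma protein genes measured (red). Afp, Apoa1 and Ttr lie at the negative edge with small SDs, Alb lies inside the mass of genes, and Apoa2 and Fgb have the widest spread of the 8.

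By the distance between the ratios on the 3 arrays, the gene nearest to Afp among all others was Apoa1, at 0.195. After it came Dapk3, a kinase gene, at 0.240, the dipeptidase gene Cndp2 at 0.254, Mvk, which encodes mevalonate kinase, at 0.263 and the immediate early gene Ier2 at 0.264. With 3 arrays such nearness rests on few values. Trf was number 78 and Ttr number 113 in this order, Rbp4 number 520, Alb number 10458, Apoa2 number 12702 and Fgb number 14037.

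Other genes of secreted plasma proteins, 54 measured of 69 listed, lay on both sides with a median of -0.16. At an unadjusted p under 0.05, 7 were negative and 3 positive, where 9.69% and 9.89% of all genes were. By limma, 0 passed adjustment over all genes. The negative ones included genes of alpha-1-antitrypsin, the protease inhibitor of plasma. Serpina1e had -1.84, -1.52 and -3.05 on arrays 1, 2 and 3, with a mean of -2.14 ± 0.80, Serpina1c had a mean of -1.46 ± 0.39 and Serpina1a had -1.12 ± 0.30. Serpina1d had -0.64 ± 0.16, while Serpina1b had -0.43, -0.31 and 0.82 and so both signs. These copies are close in sequence, so their probes may share RNA. Itih2 at -0.86 ± 0.16 and Itih4 at -0.61 ± 0.22, which encode hyaluronan-binding plasma proteins, and Pzp at -0.56 ± 0.13, a protease-binding protein, made up the rest. On the positive side were Apoe, an apolipoprotein that many tissues and macrophages make, at 0.73, 0.95 and 0.85 with a mean of 0.84 ± 0.11, Apom at 0.99 ± 0.53 and the heme carrier gene Hpx at 0.59 ± 0.14. Apolipoprotein genes thus stood on both sides, as Apoa1 and Apoe show.

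**Figure D4:**
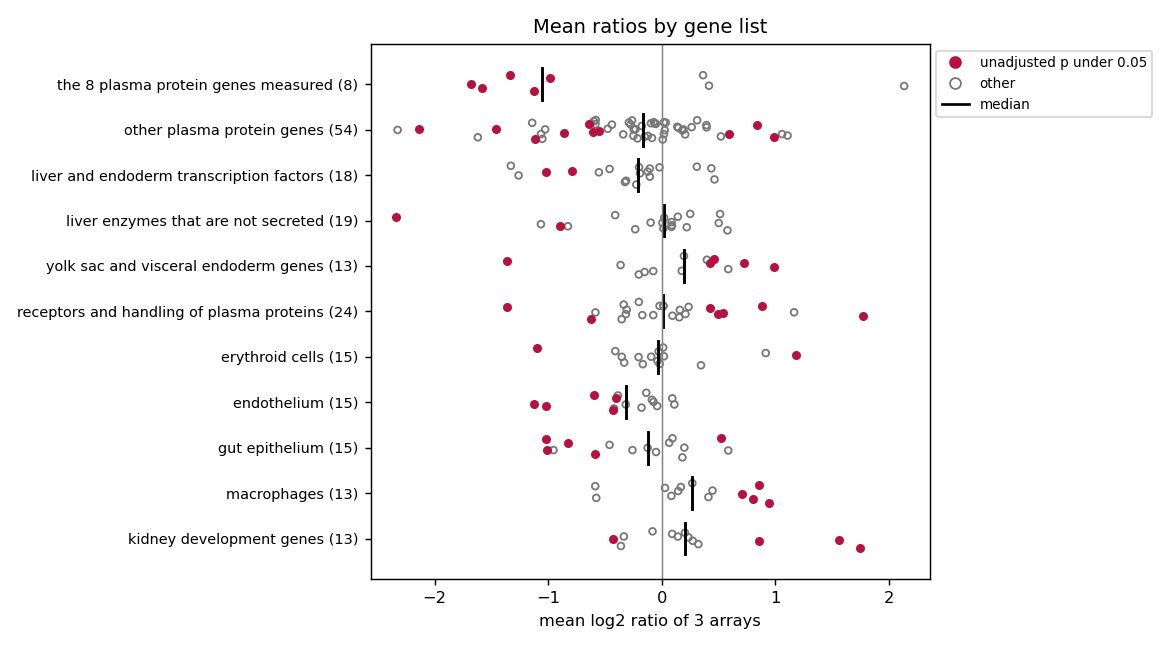
Mean log2 ratio of each gene (points; filled where the unadjusted p by limma is under 0.05) and list median (bars) for the 8 plasma protein genes and 10 other gene lists, with the number of genes measured in brackets. The 8 genes have a median of -1.06, and the other lists have medians between -0.32 and 0.27.

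Of 18 transcription factor genes of liver and endoderm, 2 were negative and 0 positive at an unadjusted p under 0.05. The shares of all genes at that p, for this list and each list below, were 9.69% negative and 9.89% positive. The median of the 18 genes was -0.21. Foxa3, a forkhead factor of hepatocytes and gut, had -0.55, -0.76 and -1.06, with a mean of -0.79 ± 0.25, and Sox17, a factor of endoderm and endothelium, had -1.02 ± 0.31. Hnf4a, a nuclear receptor that drives apolipoprotein genes in liver and yolk sac, had 0.57, 0.61 and 0.14, all positive, with a mean of 0.44 ± 0.26 and an unadjusted p of 0.0663 by limma. Its sign was opposite to that of Apoa1 on each array, and a link between these genes was not tested. Zbtb20, a repressor of Afp in the liver after birth, had 0.47 ± 0.31. Among 19 liver enzyme and intracellular protein genes, 2 were negative and 0 positive at the same unadjusted p, with 7 negative and 12 positive means and a median of 0.02. Fabp1, the fatty acid binding protein of liver, gut and yolk sac, had -2.95, -2.70 and -1.35, far on the negative side on each array, with a mean of -2.34 ± 0.86. Gnmt, a methyltransferase of liver, had -0.90 ± 0.41. Uox had -0.62, -0.01 and -0.60, with a mean of -0.41 ± 0.34 and an unadjusted p of 0.107 by limma. Cyp7a1, the first enzyme of bile acid synthesis, had both signs, at 0.24, -0.96 and -1.76. Its mean was -0.83 ± 1.00, with an unadjusted p of 0.138 by limma.

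Of 13 yolk sac and visceral endoderm genes, 1 was negative and 4 were positive at an unadjusted p under 0.05, with a median of 0.20. Cubn, which encodes cubilin, the receptor that takes up apolipoprotein A-I and transferrin in yolk sac and kidney tubule, had -1.65, -1.71 and -0.74, with a mean of -1.37 ± 0.54. Dab2, the adaptor of the same uptake route, had 0.53, 0.47 and 0.28, on the positive side of 0 on each array, with a mean of 0.43 ± 0.13. The vitamin E carrier gene Ttpa had 0.72 ± 0.28, the metal transporter gene Slc39a8 had 0.46 ± 0.08, and Apom, listed here too, was the other positive gene. Spink1 had -3.93 on array 1 and -1.08 on array 3 and was not tested.

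Among 24 receptor and handling genes of the plasma proteins, 2 were negative and 5 positive at an unadjusted p under 0.05. Cubn and Dab2, given above, were counted among them again. By sign alone, 11 means were negative and 13 positive, with a median of 0.01. The iron exporter gene Slc40a1 had 1.80, 1.75 and 1.77, opposite in sign to Trf on each array, with a mean of 1.78 ± 0.02. Steap3, the ferrireductase of the transferrin cycle, had 0.89 ± 0.20, while another of its probes had -1.003 on array 1 and -0.02 on array 3, opposite in sign. Fth1, a ferritin subunit gene, had 0.54 ± 0.27 and the lipoprotein receptor gene Vldlr had 0.49 ± 0.22. The transferrin receptor gene Tfrc had 0.06, 0.38 and 0.27, a mean of 0.24 ± 0.17. The cholesterol exporter gene Abcg1 was negative at -0.63 ± 0.15. Lrp2, which encodes megalin, the receptor that takes up transthyretin and retinol-binding protein, had 1.16, -1.90 and 0.13. Stra6, the receptor of retinol-binding protein, had 0.15 ± 0.31.

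Markers of other cells lay on both sides, and their part in the ratios of the plasma protein genes was not tested. Of 15 erythroid genes 10 had a negative mean and 5 a positive one. The threshold for each such count here was an unadjusted p under 0.05 by limma. At that p, 9.69% of all genes were negative and 9.89% positive. Of the erythroid genes 1 was negative, Klf1 at -1.10 ± 0.14, and 1 positive, Ermap at 1.18 ± 0.10. Their list medians were -0.26, -0.21 and 0.12 on arrays 1, 2 and 3. The embryonic globin genes lay near 0, with Hbb-y at 0.01 ± 0.26, Hba-x at -0.02 ± 0.28 and Hbb-bh1 at -0.04 ± 0.45. Rhag had 0.92 ± 0.98 and Epor had -0.35 ± 0.28. Of 15 endothelial genes 13 had a negative mean and 2 a positive one, and 5 were negative and 0 positive at that p, with list medians of -0.40, -0.31 and -0.28, on the same side as Afp. Cldn5 had -1.12 ± 0.31, Pecam1 -0.59 ± 0.13 and Plvap -0.43 ± 0.03. Of 15 gut epithelium genes 9 had a negative mean and 6 a positive one, and 4 were negative and 1 positive at that p, with list medians of -0.02, -0.22 and -0.12. Sox17, given above, was counted again among the negative genes of both the endothelial and the gut list. The tight junction gene Cldn6 had -1.01 ± 0.14 and the keratin gene Krt8 had -0.59 ± 0.09, while Cdx2, the transcription factor of hindgut, had 0.52 ± 0.12. Of 13 macrophage genes 2 had a negative mean and 11 a positive one, with list medians of 0.36, 0.37 and 0.25, opposite to Afp. The complement genes C1qb at -0.58 ± 0.94 and C1qc at -0.59 ± 1.13 were the negative ones, each with both signs over the arrays. At that p 0 were negative and 4 positive, namely Tyrobp at 0.70 ± 0.17, Lyz2 at 0.81 ± 0.27, Fcer1g at 0.86 ± 0.42 and Adgre1 at 0.95 ± 0.55. Of the 13 kidney development genes 4 had a negative mean and 9 a positive one. Osr1, a transcription factor of early kidney mesoderm, was negative on every array at -0.36 ± 0.08. At that p 1 was negative, Ret, and 3 were positive, Wt1, Foxd1 at 1.56 ± 0.17 and Cited1 at 0.86 ± 0.29, with list medians of 0.26, 0.30 and 0.14.

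**Figure D5:**
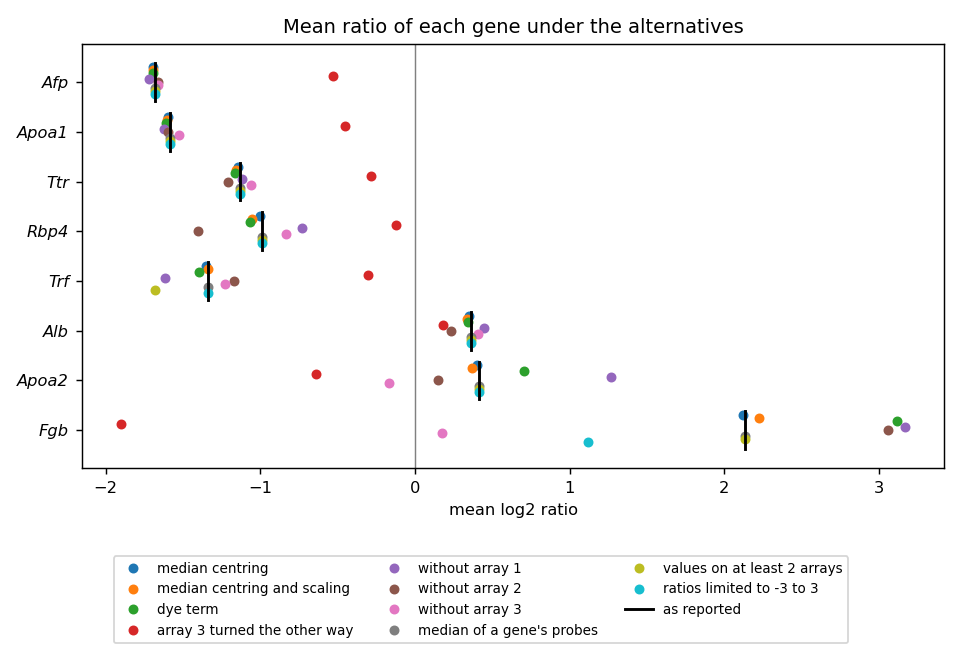
Mean log2 ratio of each of the 8 genes under 10 alternatives (coloured points) and as reported (black bars). The 5 negative genes stay negative throughout and come nearest to 0 with array 3 turned the other way, where Afp has -0.53. Apoa2 and Fgb take both signs. Because the 5 genes are negative on every array, their sign was largely fixed in advance, except with array 3 turned.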

How the data were processed

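Per the labels' descriptions, the authors used Imagene 5.5 to quantify spots and R for normalization, with lowess per print tip (20% of the data at each point, control channel under 10 set to 10) and between arrays. The deposited values are log2 ratios, used as the authors made them. No genome build is given for the arrays.

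Control spots were left out. Probes with 1 symbol in the platform annotation (16656 of 21918, with 137 several and 5125 none) and values on all 3 arrays were averaged per gene. Entrez identifiers matched 15970 probes and changed 0 symbols. Array 3 correlated above 0 with both others (Pearson 0.0517 and 0.0148) and was used as deposited. Such low correlations do not settle whether its ratios had been turned, so the other direction was run as an alternative. The mean ratio was tested against 0, two-sided, across all genes with limma 3.58.1 (moderated variances, R 4.3.3), adjusted by Benjamini-Hochberg, after a check on simulated data. Named genes are all 9 plasma protein genes, up to 4 of smallest unadjusted p in each of 10 lists and the 5 nearest to Afp by Euclidean distance. Other genes were named after their values were seen. Members and lists were chosen with earlier results of these data known. Figures used Matplotlib 3.10.9.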

Additional observations from a re-analysis of the deposited data

How the results depend on the processing

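With array 3 turned the other way, 0 of the 8 genes had an unadjusted p under 0.05 by limma, and the median of the means was -0.378. That 0 were then negative on all arrays follows from the turn itself and tests nothing. Afp then had -0.53, Apoa1 -0.45, Trf -0.30, Ttr -0.28 and Rbp4 -0.12. With array 3 turned, Apoa2 reversed to -0.64 and Fgb to -1.90. Apoa2 had 1.266 without array 1 and reversed to -0.17 without array 3. With an array left out the count at an unadjusted p was 4 to 5. Without array 1 it held 4 negative genes and 1 positive, Apoa2. The genes negative on all remaining arrays were 5, a count that could not fall when an array was left out. The median was -1.19 to -0.925. Median centring, scaling, a dye term and the median of probes kept the direction of all 8 means. So did values on at least 2 arrays and ratios limited to between -3 and 3. For the 5 genes negative on every array this outcome was largely fixed in advance. With a dye term the mean of Fgb was 3.12. Only array 3 had the other dye order, so the term fits that array exactly. The residuals then come from arrays 1 and 2 alone, and the high value of Fgb on array 3 adds nothing to them. Unmoderated variances gave 4 negative genes at an unadjusted p under 0.05. At an adjusted p of 0.05 the count was 0 genes under each alternative and 0 of 19660 probes by limma, with 3432 probes at an unadjusted p under 0.05. That count says nothing of stability. Each ratio already pairs both tissues on its array, so no further pairing was fitted. How far spots lay above background is unknown.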

Other observations

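Among the 3 nearest genes on either side of each plasma protein gene, 35 others were measured. Of these, 20.0% were negative on all arrays and 17.1% positive, where all genes had 22.5% and 22.9%. At an unadjusted p under 0.05 by limma, 3 were negative, Sik3, Ldah and Hs1bp3, and 1 was positive, Fcer1g beside Apoa2 at 0.86 ± 0.42. Over all genes, 9.69% were negative and 9.89% positive at that p. Sik3, a kinase gene beside Apoa1, had -0.66, -1.23 and -0.82 on arrays 1, 2 and 3, with a mean of -0.90 ± 0.29 (SD, n = 3) and an unadjusted p of 0.00845 by limma. Srprb, which encodes a subunit of the signal recognition particle receptor and lies beside Trf, had -0.28, -0.34 and -0.63, with a mean of -0.41 ± 0.19 and an unadjusted p of 0.0565 by limma. These genes were chosen after their values were seen.

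Other plasma protein genes had values on 2 arrays only and entered no test. Orm1, an acute phase protein gene, had -1.44 on array 1 and -0.49 on array 3. Plg, the gene of plasminogen, had 1.13 on array 1 and -1.61 on array 3, and F5, of coagulation factor V, had 0.79 on array 1 and 0.72 on array 3.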
